A study of Mus musculus with 9 samples.

Results

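Krt8, Krt18, Pkp3, Wfdc2 and Clu are 5 of the 11046 genes in a table of raw read counts from 3 mouse tumour cell lines. They were chosen from their measured levels in these same libraries, as the simple keratins and other epithelial genes that the table holds. Their differences between lines are therefore given as a description, with no test. Tests are given for other genes only, whose lists were also drawn up with earlier results of these data known.

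The cells were profiled in culture by poly(A)-selected, stranded RNA sequencing, for a study whose title sets transcription beside the electrophysiological impact of brain metastases. The labels describe 482N1 as lung NSCLC (non-small-cell lung cancer), B16F10-BrM as melanoma with mutant BRAF, and E0771-BrM as triple negative breast cancer, with BrM for brain metastatic. All have the genotype entry WT and none was treated. The medium was DMEM for the first 2 lines but RPMI 1640 with HEPES for E0771-BrM, both with serum, antibiotics and amphotericin B, so line and medium cannot be told apart wherever E0771-BrM is compared. Each line had 3 libraries, A, B and C. Since the labels name no separate cultures behind them, the SDs and p-values measure only the spread between these libraries, which may be technical. Total counts were 7332390 to 9293348 per library.

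Keratins are the intermediate filaments of epithelial cells, and each filament is built from type II chains paired with type I chains. Keratin 8 (type II) and keratin 18 (type I) are the partners found in simple, single-layered epithelia, and are widely used as markers of carcinoma cells. Keratin filaments are anchored at desmosomes, where plakophilin 3, the product of Pkp3, is a plaque protein of the armadillo family. Wfdc2 encodes a secreted protein with whey acidic protein domains, known in humans as HE4, which is made by airway and reproductive tract epithelium. Clu encodes clusterin, also called apolipoprotein J, a secreted chaperone of many epithelia and other tissues. Melanocytes, from which melanoma arises, derive from the neural crest and are not epithelial.

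RefSeq holds promoter entries for Krt8, Krt18 and Wfdc2, each a short window around the annotated start. They are shown because these 3 genes had no counts, or almost none, in B16F10-BrM. Wfdc2 has 2 entries that start 1 base apart, of which the first is shown and searched. Pkp3, which had 1 count in all in B16F10-BrM, and Clu had no entry in the promoter set used, so they are named only. The coordinates and sequences are of the build GRCm38.p6, not the build GRCm39 of the submitters' processing notes. Krt8 and Krt18 lie next to each other among the coding genes of chromosome 15 and are transcribed from opposite strands. Capitals mark the E-box CACCTG, a core bound by the SNAIL and ZEB repressors, and the TATA box TATAAA, both searched on either strand.

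Krt8, chr15:102004293-102004592, minus strand: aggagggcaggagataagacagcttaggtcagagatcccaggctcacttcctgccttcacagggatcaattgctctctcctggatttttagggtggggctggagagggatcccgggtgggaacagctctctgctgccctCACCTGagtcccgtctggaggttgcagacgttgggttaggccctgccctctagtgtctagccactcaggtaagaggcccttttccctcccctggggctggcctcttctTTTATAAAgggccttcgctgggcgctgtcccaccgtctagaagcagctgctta
Krt18, chr15:102027966-102028265, plus strand: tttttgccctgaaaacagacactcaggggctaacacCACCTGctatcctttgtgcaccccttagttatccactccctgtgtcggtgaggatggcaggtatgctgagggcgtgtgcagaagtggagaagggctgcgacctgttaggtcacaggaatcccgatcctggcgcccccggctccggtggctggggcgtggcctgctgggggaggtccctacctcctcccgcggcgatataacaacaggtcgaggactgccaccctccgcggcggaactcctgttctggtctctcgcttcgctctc
Wfdc2, chr2:164562465-164562764, plus strand: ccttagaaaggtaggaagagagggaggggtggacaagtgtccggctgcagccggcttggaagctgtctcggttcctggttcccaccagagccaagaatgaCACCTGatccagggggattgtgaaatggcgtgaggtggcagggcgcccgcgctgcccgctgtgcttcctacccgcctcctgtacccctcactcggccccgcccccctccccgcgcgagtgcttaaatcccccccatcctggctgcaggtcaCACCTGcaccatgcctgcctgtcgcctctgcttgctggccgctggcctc

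With the annotated start as position 0, CACCTG begins at -111 in Krt8, at -214 in Krt18, and at -150 and 1 in Wfdc2. Of 32851 promoter entries of this length, 20.2% hold it on either strand. TATAAA begins at -1 in the Krt8 entry and so spans the annotated start. It is given there as letters and not as a working TATA box of that start. A match on the other strand overlaps it and widens the run of capitals. TATAAA is held by 13.6% of entries. It was not found in the Krt18 or Wfdc2 window. The AP-1 site TGANTCA (7.81% of entries) and the CCAAT box CCAAT (37.4%) were found in none of the 3. The GC box GGGCGG (35.7%) was found in Wfdc2, on the minus strand at -53. These matches describe the letters of each window and do not show binding.

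Krt18 was close to an on or off gene across the 3 lines. The libraries of 482N1 held 33567, 32601 and 33821 counts of Krt18, those of B16F10-BrM held none, and those of E0771-BrM held 3, 0 and 6. In CPM, the count relative to the TMM-scaled library size, the level was 4180 ± 223 in 482N1 (SD, n = 3) and 0.376 ± 0.374 in E0771-BrM. With no count in B16F10-BrM, the limit set by a floor of 3 counts over its 3 libraries was 0.115 CPM, which puts Krt18 at least 36400-fold higher in 482N1. In cultures sequenced in bulk, fewer expressing cells and less RNA per cell cannot be told apart. The fitted log2 fold change of Krt18 for E0771-BrM minus 482N1 was -13.40 ± 0.17 (SE), and -12.81 without library B of E0771-BrM. Without its library C only 3 counts were left, and the ratio of summed counts, not a fit, gave -14.46 on the log2 scale. Those shifts are larger than the SE, which is too small for a line with 9 counts in all.

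The E0771-BrM libraries with counts of Krt18 were A and C, at 0.00911% and 0.0179% of the mean level in 482N1. The pigment gene Dct, at 17216 ± 425 CPM in the melanoma line (SD, n = 3), also had 353, 29 and 263 counts in E0771-BrM and 142, 14 and 148 in 482N1. Library B was the lowest in both, and its Dct level was 0.0202% and 0.00979% of that in B16F10-BrM. Whether the few Krt18 counts of E0771-BrM and the Dct counts outside the melanoma line share a source was not tested. The libraries of E0771-BrM and B16F10-BrM overlapped in Krt18, since library B of E0771-BrM had none either. Against the floor of 3 counts, the 9 counts of E0771-BrM gave a ratio of 3.24 over the group. It is not a firm lower bound, since the counting error of the 9 counts is left out. On the log2 scale this ratio was 1.69, and 0.69 without library C of E0771-BrM.

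Krt8, the type II partner, had a clear level in the breast line. It had 27521, 27961 and 28570 counts in 482N1, 0, 1 and 1 in B16F10-BrM, and 1640, 1428 and 1477 in E0771-BrM. The lines did not overlap, and their order was 482N1, E0771-BrM, B16F10-BrM. The levels were 3512 ± 132 CPM in 482N1 and 188 ± 18.7 CPM in E0771-BrM (SD, n = 3), with 2 counts in all in B16F10-BrM. The fitted log2 fold change of Krt8 for E0771-BrM minus 482N1 was -4.22 ± 0.08 (SE), against -13.40 for Krt18, with the limit on its SE given above. Between E0771-BrM and B16F10-BrM the Krt8 ratio was 2450, with a 95% counting interval of 678 to 20300 that covers counting error only. On the log2 scale it was 11.26, and 10.6 without library A of B16F10-BrM, which held neither of the 2 counts.

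The balance of the keratin partners was steady within the lung line and far from it in the breast line. The ratio of Krt8 to Krt18 counts, not corrected for length, was 0.82, 0.858 and 0.845 in libraries A, B and C of 482N1. In E0771-BrM it was 547 in library A and 246 in library C, and library B had 1428 counts of Krt8 and none of Krt18. Divided by transcript length, Krt18 stood at 2909 ± 155 CPM per kb and Krt8 at 1794 ± 67.5 CPM per kb in 482N1, which ranked them 43 and 71 from the top of 10853 genes with a length. In E0771-BrM, Krt8 stood at 95.9 ± 9.53 CPM per kb, rank 727, and Krt18 at 0.262 ± 0.26 CPM per kb, rank 10397.

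Of the 50-base words of the Krt8 transcript, 26.9% also occur in the pseudogene Krt8-ps, against 0.72% of those of Krt18 in other genes and 0% for Pkp3, Wfdc2 and Clu. How reads with several matches were counted is not given in the sources used here, so Krt8 values are the less certain of the 5. A noncoding RNA gene, Gm36026, overlaps Krt8 on the opposite strand, and the strand setting of the counting is likewise not given.

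**Figure D1:**
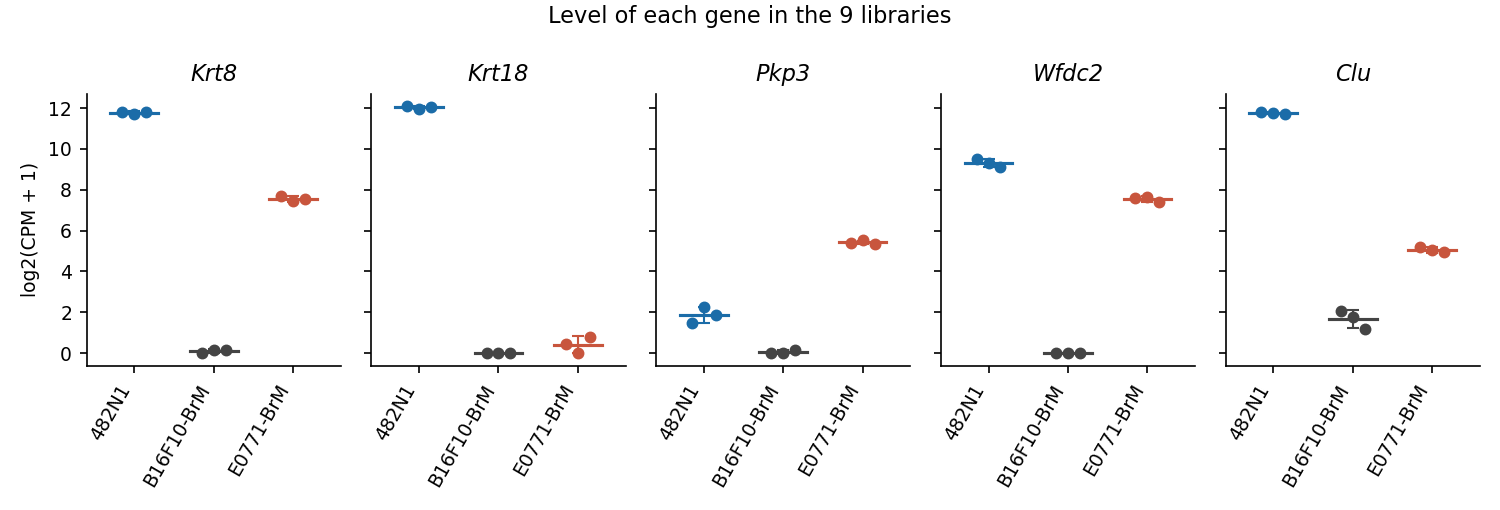
Level of Krt8, Krt18, Pkp3, Wfdc2 and Clu as log2(CPM + 1) in libraries A, B and C (points, left to right) of each line, with the mean (bar) and SD (whisker) of the 3 log2 values. Krt8, Krt18, Wfdc2 and Clu were highest in 482N1, whereas Pkp3 was highest in E0771-BrM, and Krt18 lay near 0 in E0771-BrM where Krt8 did not.

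Of 30 other keratin genes listed, 2 were measured. Krt20, a type I keratin of gut and urothelial lining, had 1089, 1173 and 881 counts in 482N1, none in B16F10-BrM, and 235, 206 and 210 in E0771-BrM. Unlike Krt18, it thus had counts in every library of the breast line. Its level was 26.9 ± 2.63 CPM there and 131 ± 16.8 CPM in 482N1 (SD, n = 3), and the log2 fold change for E0771-BrM minus 482N1 was -2.29 ± 0.11 (SE), with an adjusted p of 2.08e-23 by the quasi-likelihood test of edgeR over all genes. Against the floor of B16F10-BrM, Krt20 was higher by at least 1140-fold in 482N1 and by at least 234-fold in E0771-BrM. Krt80, a type II keratin, had another order and was highest in the melanoma line, at 11.1 ± 0.233 CPM against 2.68 ± 0.975 in 482N1 (log2 fold change 2.05 ± 0.25, edgeR adjusted p = 5.47e-10). In E0771-BrM Krt80 was at 1.46 ± 0.663 CPM, and its call as lower than in 482N1 (edgeR adjusted p = 0.0214) was lost without library C of 482N1 (0.206), without library B of E0771-BrM (0.14) or without its library C (0.0522). Krt7, Krt19, Epcam and Cdh1 are not analysed here.

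The remaining filament genes went in both directions. Of 8 measured filament and linker genes, 4 passed the test as higher and 4 as lower in B16F10-BrM relative to 482N1, while 4 were higher and 2 lower in E0771-BrM. As background, 77.8% of the 11037 genes tested had an adjusted p under 0.05 for B16F10-BrM against 482N1 (38% higher, 39.9% lower), and 78.1% for E0771-BrM against 482N1 (37.7% higher, 40.4% lower). Vimentin, Vim, the filament of mesenchymal cells, was highest in the line with the most Krt8 and Krt18, at 7290 ± 838 CPM in 482N1, 3459 ± 99.8 in E0771-BrM and 1465 ± 52.3 in B16F10-BrM (SD, n = 3). Its log2 fold change against 482N1 was -2.31 ± 0.07 in B16F10-BrM and -1.08 ± 0.07 in E0771-BrM (edgeR adjusted p = 1.44e-31 and 7.47e-19). Plec, the plectin linker that ties filaments to junctions, was lower in B16F10-BrM, at 36.2 ± 7.61 against 261 ± 5.95 CPM (log2 fold change -2.85 ± 0.10, edgeR adjusted p = 4.76e-27), and did not pass the test in E0771-BrM, at 235 ± 9.57 CPM (edgeR adjusted p = 0.101). The nuclear lamin Lmnb1 was higher in both, at 329 ± 10.6 and 170.0 ± 12.2 CPM against 59.9 ± 4.35.

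Among 10 measured genes of proteins known to bind or organise keratins, 6 were lower and 3 higher in the melanoma line than in 482N1, and 5 were lower and 3 higher in the breast line, where 77.8% and 78.1% of all genes were called in those comparisons. Fam83h, which organises keratin filaments, was at 12.5 ± 0.632 CPM in 482N1, 3.98 ± 0.0317 in the melanoma line and 0.21 ± 0.193 in the breast line (SD, n = 3). Its log2 fold change for E0771-BrM minus 482N1 was -5.81 ± 0.38 (edgeR adjusted p = 9.56e-19). Tradd, a death receptor adaptor that keratin 18 can bind, was lower in B16F10-BrM, at 15.1 ± 2.21 against 32.1 ± 2.14 CPM (log2 fold change -1.09 ± 0.13, edgeR adjusted p = 1.26e-10). In E0771-BrM, which almost lacked Krt18, Tradd was at 35.3 ± 1.68 CPM and did not pass the test against 482N1 (edgeR adjusted p = 0.273). Hspa8, a cytosolic chaperone, was higher in both lines, with log2 fold changes against 482N1 of 1.36 ± 0.07 and 2.00 ± 0.07 (edgeR adjusted p = 2.17e-23 and 1.05e-29).

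Pkp3 was the exception among the 5 genes, being highest in the breast line. It had 326, 375 and 320 counts in E0771-BrM, 14, 31 and 21 in 482N1, and 0, 0 and 1 in B16F10-BrM. The lines did not overlap. The levels were 42.1 ± 2.62 CPM in E0771-BrM and 2.73 ± 0.965 CPM in 482N1 (SD, n = 3), with a fitted log2 fold change of 3.93 ± 0.19 (SE) for E0771-BrM minus 482N1. Per length, Pkp3 ranked 3457 of 10853 genes in E0771-BrM and 9725 in 482N1. Relative to B16F10-BrM, Pkp3 was 72.1 times higher in 482N1 (95% counting interval 12.5 to 2890) and 1100 times higher in E0771-BrM (197 to 43600), both against the single count in library C of B16F10-BrM. Without that library the bounds on the log2 scale were -4.01 for B16F10-BrM minus 482N1 and 7.95 for E0771-BrM minus B16F10-BrM, where the ratios had given -6.17 and 10.11.

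The measured desmosome genes other than Pkp3 were highest in 482N1. Jup, plakoglobin, which links desmosomal cadherins to the plaque, had 471, 416 and 490 counts in 482N1, 97, 85 and 79 in E0771-BrM, and 8, 11 and 4 in B16F10-BrM. Its levels were 57.6 ± 6.59, 10.8 ± 1.33 and 0.893 ± 0.46 CPM in that order (SD, n = 3), with log2 fold changes against 482N1 of -2.42 ± 0.14 in E0771-BrM and -6.01 ± 0.21 in B16F10-BrM (edgeR adjusted p = 4.41e-21 and 4.86e-30). Pkp2, the plakophilin of simple epithelia and heart, stood at 95.4 ± 12.8 CPM in 482N1, 25.3 ± 3.73 in E0771-BrM and 5.79 ± 1.06 in B16F10-BrM. Pkp4, an armadillo relative of the plakophilins, had smaller log2 fold changes against 482N1, -0.86 ± 0.08 in E0771-BrM and -0.23 ± 0.08 in B16F10-BrM (edgeR adjusted p = 7.62e-14 and 0.00642). All 3 of the 13 listed desmosome genes that were measured passed the test as lower than in 482N1 in both other lines, as did 39.9% of all genes in B16F10-BrM and 40.4% in E0771-BrM. The line with the most Pkp3 thus had less Jup, Pkp2 and Pkp4 than the lung line.

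Wfdc2 was high in both carcinoma lines and without a count in the melanoma line. It had 5652, 5325 and 4431 counts in 482N1, 1535, 1655 and 1350 in E0771-BrM, and 0 in each library of B16F10-BrM. The lines did not overlap. The levels were 644 ± 83.7 CPM in 482N1 and 187 ± 16.5 CPM in E0771-BrM (SD, n = 3), with a fitted log2 fold change of -1.78 ± 0.08 (SE), the smallest difference between those lines among the 5 genes. The floor in B16F10-BrM puts Wfdc2 at least 5610-fold higher in 482N1 than there, and at least 1630-fold higher in E0771-BrM. Within 482N1 its coefficient of variation over the 3 libraries was 13%, where counting error alone would give 1.4%, and those of Krt8, Krt18 and Clu were 3.05% to 5.33%. Wfdc2 is a short transcript, and per length it stood at 758 ± 98.6 CPM per kb in 482N1 (rank 122 of 10853) and at 221 ± 19.4 in E0771-BrM (rank 330), above the 95.9 CPM per kb of Krt8 in that line.

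Of 16 other genes with whey acidic protein domains, 1 was measured. This was Wfdc1, at 1.55 ± 0.397 CPM in 482N1, 2.86 ± 1.16 in E0771-BrM and 0.495 ± 0.227 in B16F10-BrM (SD, n = 3). It was lower in B16F10-BrM than in 482N1 (log2 fold change -1.61 ± 0.52, edgeR adjusted p = 0.00495). Its call as higher in E0771-BrM than in 482N1 (log2 fold change 0.88 ± 0.38, edgeR adjusted p = 0.033) was lost with DESeq2 (0.089), with limma-voom (0.0519) and without library B (0.0595) or C (0.122) of 482N1 or library A (0.252) or B (0.0518) of E0771-BrM.

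Clu, the other secreted protein gene, was the member with counts in every library of the melanoma line. It had 27632, 28351 and 26526 counts in 482N1, 31, 19 and 11 in B16F10-BrM, and 285, 269 and 237 in E0771-BrM. The lines did not overlap, and their order was 482N1, E0771-BrM, B16F10-BrM. The levels were 3446 ± 105, 32.7 ± 3.33 and 2.3 ± 0.977 CPM in that order (SD, n = 3). The fitted log2 fold changes of Clu were -6.72 ± 0.10 for E0771-BrM minus 482N1, -10.52 ± 0.13 for B16F10-BrM minus 482N1 and 3.80 ± 0.16 for E0771-BrM minus B16F10-BrM (SE). These 3 comparisons share libraries. Per length, Clu ranked 64 of 10853 genes in 482N1, 2984 in E0771-BrM and 9179 in B16F10-BrM.

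Genes of clusterin receptors and of related extracellular or chaperone proteins showed no common direction. Of 11 measured, 7 were higher and 4 lower in B16F10-BrM relative to 482N1, with a median log2 fold change of 0.80 against -0.04 over all genes, and 5 were higher and 4 lower in E0771-BrM (median 0.01 against -0.04). Over all genes, 38% were called higher and 39.9% lower in B16F10-BrM, and 37.7% and 40.4% in E0771-BrM. The receptor gene Vldlr was, like Clu, highest in 482N1, at 103 ± 19.2 CPM (SD, n = 3), with 3 counts in B16F10-BrM and 1 in E0771-BrM. Its ratio of 482N1 to B16F10-BrM was 893 (95% counting interval 305 to 4330). Lrp8, the related reelin receptor, was lowest in 482N1, at 8.95 ± 2.09 CPM against 24.5 ± 0.435 in B16F10-BrM and 95.5 ± 6.67 in E0771-BrM (log2 fold changes against 482N1 of 1.45 ± 0.14 and 3.41 ± 0.13, edgeR adjusted p = 4.49e-13 and 1.79e-28). Apoe, another secreted apolipoprotein, was highest in the melanoma line, at 522 ± 53.2 CPM against 19.3 ± 4.78 in 482N1 and 1.86 ± 0.584 in E0771-BrM. App, the amyloid precursor, was at 153 ± 3.63 CPM in 482N1 and 1.08 ± 0.629 in E0771-BrM (log2 fold change -7.13 ± 0.17, edgeR adjusted p = 8.83e-37).

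Junction genes outside the desmosome were mostly lower in both other lines than in 482N1. Of 14 measured tight junction and polarity genes, 11 were lower and 2 higher in each of the other lines, with median log2 fold changes of -1.01 in B16F10-BrM and -1.32 in E0771-BrM against -0.04 over all genes in both comparisons. Over all genes, 39.9% were called lower and 38% higher in B16F10-BrM, and 40.4% and 37.7% in E0771-BrM. Cgnl1, the junctional plaque protein paracingulin, had 147 ± 15.4 CPM in 482N1, 3.6 ± 1.63 in the melanoma line and 5.1 ± 1.27 in the breast line (SD, n = 3), log2 fold changes of -5.35 ± 0.16 and -4.85 ± 0.16 (edgeR adjusted p = 3.24e-24 and 1.93e-23). Patj, an apical polarity scaffold, went against this in the melanoma line, with 993 ± 103 CPM in B16F10-BrM, 34.4 ± 3.99 in 482N1 and 1.96 ± 0.972 in E0771-BrM. Of 7 measured adherens junction genes, 4 were lower and 2 higher in B16F10-BrM, and 5 lower and 1 higher in E0771-BrM. Among them Ctnnd1, the p120 catenin, was at 117 ± 20.3, 36 ± 7.61 and 9.13 ± 2.76 CPM in 482N1, B16F10-BrM and E0771-BrM. The call of Afdn, the afadin linker, as higher in B16F10-BrM (log2 fold change 0.18 ± 0.07, edgeR adjusted p = 0.0309) was lost without library B of 482N1 (0.115), library B of B16F10-BrM (0.0519) or its library C (0.165).

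Other epithelial genes were mostly highest in 482N1. Of 8 measured genes for epithelial surface proteins and transcription factors, 7 were lower and 1 higher than in 482N1 in both B16F10-BrM and E0771-BrM, with median log2 fold changes of -5.67 and -4.18. Over all genes, 39.9% and 40.4% were called lower in these lines. Klf5, a factor of epithelial progenitors, had 4119, 3946 and 4236 counts in 482N1, 235, 204 and 200 in E0771-BrM, and 5, 2 and 9 in B16F10-BrM. Its log2 fold changes against 482N1 were -4.28 ± 0.10 and -9.68 ± 0.16 in those lines (edgeR adjusted p = 3.77e-37 and 6.62e-43). Itgb4, the hemidesmosomal integrin that anchors keratins to the basement membrane, was lowest in the breast line, at 0.166 ± 0.0759 CPM against 1.39 ± 0.841 in B16F10-BrM and 48.3 ± 3.77 in 482N1 (SD, n = 3). Map7, a microtubule-binding gene, was the gene that was higher, at 6.84 ± 0.667 and 5.49 ± 0.192 CPM against 1.18 ± 1.18.

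Genes of epithelial-mesenchymal transition, a program that represses epithelial genes in many carcinomas, had no single order. Of 13 measured, 9 were lower and 3 higher in the melanoma line than in 482N1, and 4 lower and 7 higher in the breast line. Over all genes, 39.9% were called lower and 38% higher in the melanoma line, and 40.4% and 37.7% in the breast line. Zeb1, a repressor that binds the E-box above, had 444, 476 and 479 counts in 482N1, 416, 477 and 434 in E0771-BrM, and 2, 0 and 0 in B16F10-BrM. Between E0771-BrM and 482N1 it did not pass the test (log2 fold change -0.09 ± 0.10, edgeR adjusted p = 0.405). Zeb2 was highest in the melanoma line, at 142 ± 2.93 CPM against 24.6 ± 0.495 in 482N1 and 43.2 ± 4.39 in E0771-BrM (SD, n = 3). Twist1 and Prrx1 were without a count in B16F10-BrM and highest in E0771-BrM, at 50.7 ± 5.32 and 101 ± 7.62 CPM against 21.7 ± 1.14 and 5.58 ± 0.481 in 482N1 (log2 fold changes 1.22 ± 0.12 and 4.17 ± 0.14, edgeR adjusted p = 1.64e-12 and 4.23e-30). Snai1 was at 0.626 ± 0.335 CPM in 482N1 and 6.9 ± 1.41 in E0771-BrM (log2 fold change 3.43 ± 0.38, edgeR adjusted p = 4.45e-11). The mesenchymal effectors Cdh2 and Fn1 were lowest in E0771-BrM, at 0.536 ± 0.141 and 0.996 ± 0.386 CPM, against 90.4 ± 9.45 and 520.2 ± 42.9 in 482N1.

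**Figure D2:**
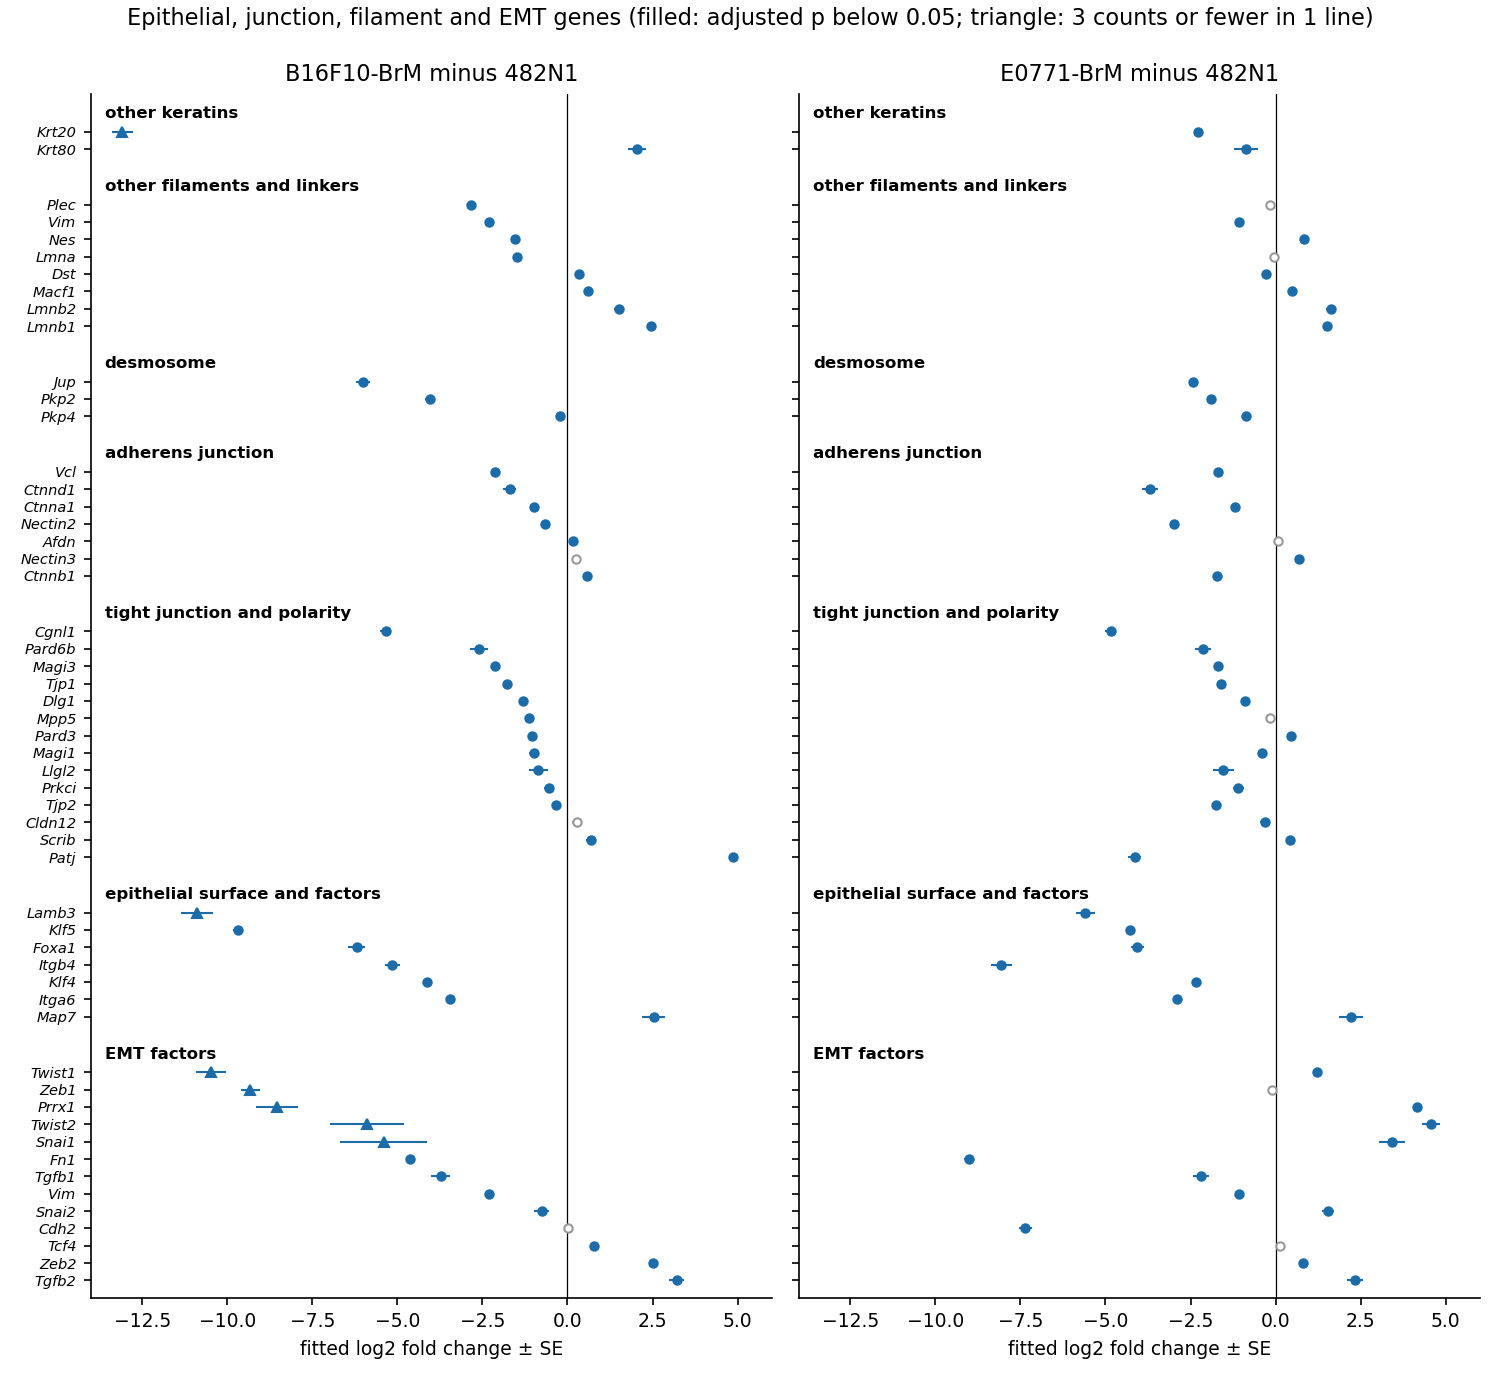
Fitted log2 fold change ± SE (horizontal axis) of the measured keratin, filament, junction, epithelial and epithelial-mesenchymal transition (EMT) genes for B16F10-BrM minus 482N1 (left) and E0771-BrM minus 482N1 (right), which share the 482N1 libraries. Filled symbols had an adjusted p under 0.05, and triangles mark genes with 3 counts or fewer in 1 line, whose fitted value depends on the prior count; 1 measured epithelial gene is not drawn. Of 14 tight junction and polarity genes 11 lie left of 0 as called in each panel, and of 13 EMT genes 9 in the left panel and 4 in the right. Over all genes, 39.9% (left) and 40.4% (right) were called lower.

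Over all 75 measured genes of these lists, each counted once, 48 were lower and 23 higher in B16F10-BrM than in 482N1, so that 71 were called (94.7%) where 77.8% of all genes were. In E0771-BrM 42 were lower and 24 higher, so that 66 were called (88%) where 78.1% of all genes were. Between E0771-BrM and B16F10-BrM, 36 were higher and 24 lower in E0771-BrM (80% called, against 73.7% of all genes, 37.2% higher and 36.5% lower). The 75 were measured of 194 listed, and the others are not analysed here.

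The 5 genes fell into different shapes over the 3 lines. The order 482N1, E0771-BrM, B16F10-BrM with no overlap of libraries held for Krt8, Wfdc2 and Clu, and for 10.3% of the 11037 genes tested. The order E0771-BrM, 482N1, B16F10-BrM held for Pkp3, and for 6.89% of genes. Krt18 overlapped between E0771-BrM and B16F10-BrM, and some overlap was seen in 50.3% of genes. All 5 genes passed the filter on low counts. No count in any B16F10-BrM library was found for 204 of the 11046 genes in the table (1.85%). At least 500 CPM in 482N1 was found for 269 genes (2.44%). Of these 269, 4 had no count in B16F10-BrM, which were Krt18, Wfdc2, Ankrd1 and Anxa3.

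To compare shapes, each gene was taken as log2(CPM + 1) in the 9 libraries, centred on its own mean, and the root mean square difference to each of 10249 other genes was computed. Among the members, Krt8 and Wfdc2 were nearest to each other (a difference of 1.14 on the log2 scale) and Krt18 and Pkp3 farthest apart (6.32). Krt8 was closer to Wfdc2 and to Clu (1.69) than to its filament partner Krt18 (3.403). The nearest genes to Krt8 were S100a6 (1.07), a calcium-binding protein, then Wfdc2, Anxa3, Mndal and Spp1. Wfdc2 was nearest to Anxa3, an annexin, at 0.253. Clu was nearest to Ankrd1 (0.467), an ankyrin repeat gene, and then to Fbln2, F2r, Stard10 and Klf5. Pkp3 had the closest matches of the 5, Cyth4 at 0.138 and the interferon-inducible gene Ifi211 at 0.191, followed by Sh2d5, Mcub and Ccbe1. For Krt18 no gene was nearer than Clu, at 2.05, followed by Ptges, Onecut2, Ankrd1 and Pgap1. This likeness rests on 9 libraries in 3 lines and was ranked on these same libraries, so it is a description. The difference is not scaled to the range of a gene over the lines, which was smallest for Pkp3 and largest for Krt18. How close the nearest genes lie therefore cannot be compared fairly between members.

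**Figure D3:**
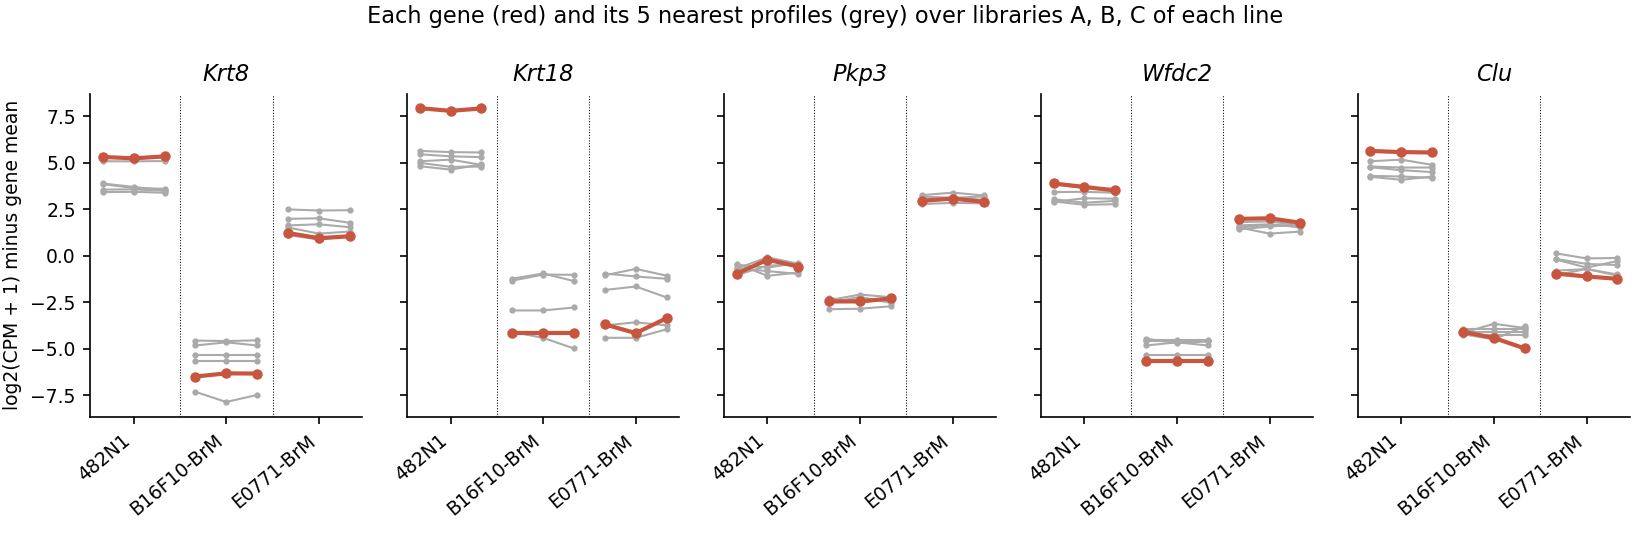
Centred log2(CPM + 1) of each of the 5 genes (red) and of its 5 nearest genes (grey) over libraries A, B and C of each line, with dotted lines between the cell lines. The grey profiles run close to Pkp3, while Krt18 stands above its nearest genes in 482N1, the closest of them, Clu, differing by 2.05 on the log2 scale.

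The nearest measured coding genes on each side of the members gave a local comparison, using RefSeq gene order only. Some are not close, since unmeasured coding genes lie between. Krt80, Atg101 and Nr4a1 are coding genes 25, 27 and 28 before Krt8. Dnttip1, Ube2c and Snx21 are coding genes 14, 15 and 17 after Wfdc2. Beyond Krt18 the next coding gene is Eif4b, a translation initiation factor, which also had the order 482N1, E0771-BrM, B16F10-BrM, at 721 ± 26.7, 342 ± 17.2 and 188 ± 13 CPM (SD, n = 3). Its log2 fold changes against 482N1 were -1.07 ± 0.07 and -1.94 ± 0.07 (edgeR adjusted p = 8.02e-19 and 1.54e-28), against -4.22 ± 0.08 for Krt8 in E0771-BrM. The next gene, Tns2, differed by -0.72 ± 0.21 and -0.77 ± 0.20 on the same scale.

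The neighbours of Clu included genes with no count in the melanoma line. Scara3, the adjoining coding gene, was at 51.2 ± 2.97 CPM in 482N1 and 17.5 ± 1.63 in E0771-BrM (SD, n = 3), and at least 447-fold higher in 482N1 than in B16F10-BrM, where it had none. On the other side Ephx2, an epoxide hydrolase, was also without a count there, at 44.9 ± 1.42 CPM in 482N1 and 0.748 ± 0.587 in E0771-BrM. Ccdc25, past Scara3, went the other way, at 81.2 ± 5.68 CPM in B16F10-BrM against 54.5 ± 3.9 in 482N1. So did Esco2 and Trim35, with log2 fold changes of 1.80 ± 0.17 and 1.34 ± 0.09 for B16F10-BrM minus 482N1. In that comparison 3 of the 6 measured neighbours of Clu were called higher and 3 lower, where 38% and 39.9% of all genes were. Among the 6 measured neighbours of Pkp3, the adjoining gene Sigirr, an inhibitor of interleukin-1 receptor signalling, had the same order as Pkp3, at 21.8 ± 0.864 CPM in E0771-BrM, 6.65 ± 0.736 in 482N1 and 1.39 ± 0.901 in B16F10-BrM, with a log2 fold change of 1.71 ± 0.19 for E0771-BrM minus 482N1 (edgeR adjusted p = 3.8e-11). Rnh1 had that order too by its means, at 164 ± 3.59, 131 ± 7.35 and 31.8 ± 2.34 CPM. Ifitm3 was highest in E0771-BrM, at 389 ± 30.45 CPM, but lowest in 482N1, at 0.462 ± 0.159 CPM. Ifitm2, Pgghg and Ptdss2 were instead highest in 482N1 and lowest in E0771-BrM by their means, at 119 ± 7.82 and 25.5 ± 3.54 CPM for Ifitm2. For E0771-BrM minus 482N1, 3 of the 6 were called higher and 3 lower, where 37.7% and 40.4% of all genes were. Of the 6 measured neighbours of Wfdc2, 4 passed the test as lower in the melanoma line than in 482N1, where 39.9% of all genes did. All 6 passed it as lower in E0771-BrM than in 482N1, where 40.4% of all genes did. In the melanoma line the farthest from 0 was Snx21 (log2 fold change -2.89 ± 0.20, edgeR adjusted p = 1.86e-18). Pigt, the coding gene just before Wfdc2, did not pass the test between B16F10-BrM and 482N1 (24.4 ± 6.56 against 22.2 ± 3.88 CPM, edgeR adjusted p = 0.404).

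**Figure D4:**
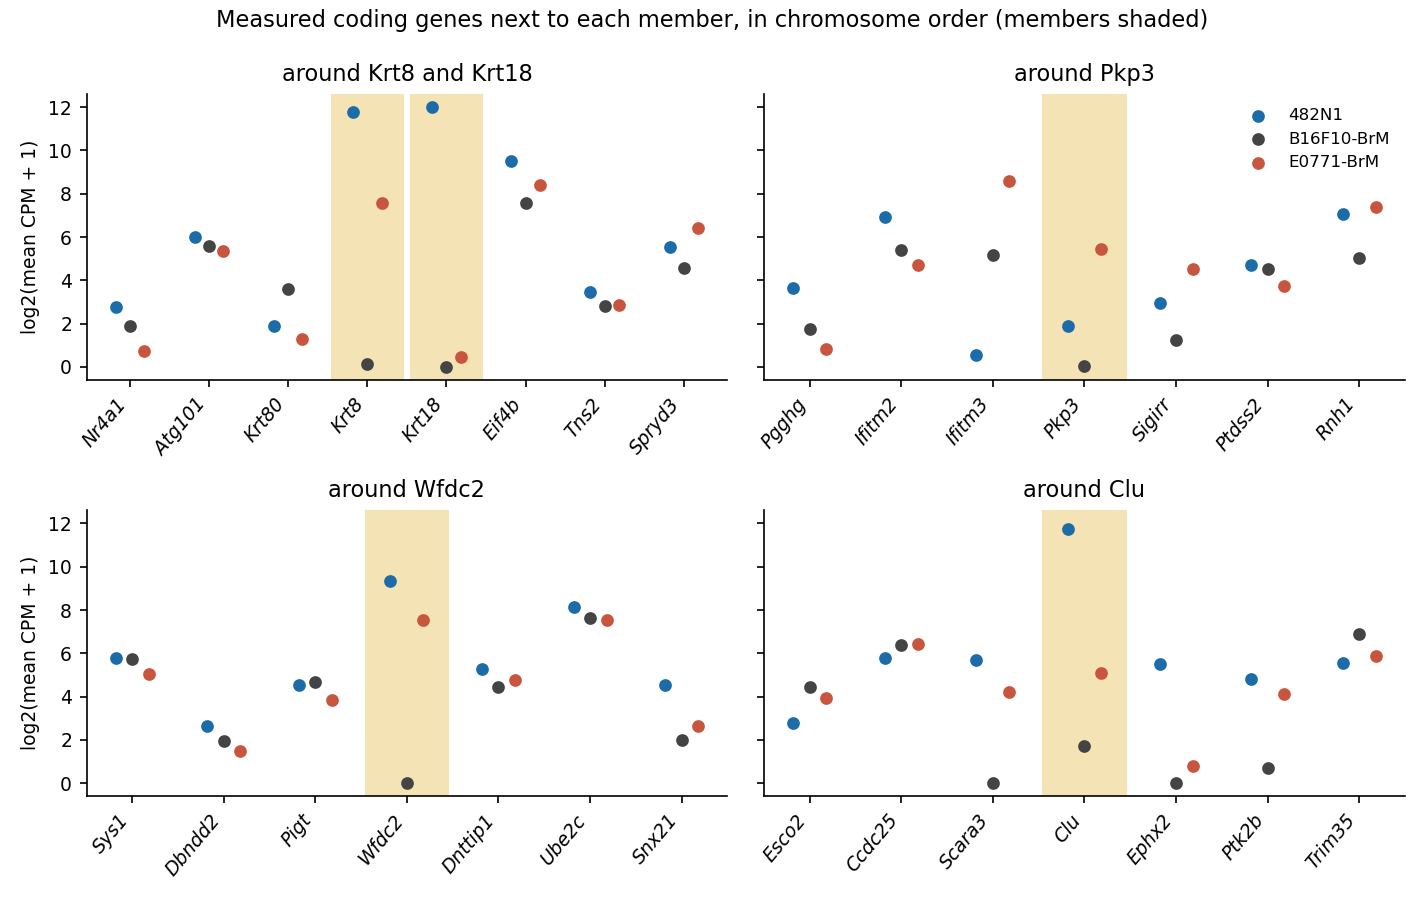
Level as log2(mean CPM + 1) of the 5 genes (shaded) and of the 3 nearest measured coding genes on each side, in chromosome order and not to distance, for each line (points). Unmeasured coding genes that lie between them are left out. Krt8, Krt18 and Wfdc2 are at or near 0 in B16F10-BrM where the genes drawn beside them are not, whereas Scara3 and Ephx2 beside Clu are at 0 there. Ccdc25, Esco2 and Trim35, also near Clu, are higher in B16F10-BrM than in 482N1.

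The lines were checked against markers of their labelled tissues, of which the table holds a part. The 5 measured of 11 melanocyte markers summed to 24630 to 25484 CPM in the B16F10-BrM libraries, to 103 to 162 CPM in E0771-BrM and to 2.77 to 28.1 CPM in 482N1. The 4 measured of 12 lung epithelium markers (Abca3, Ctsh, Foxa1 and Etv5) summed to 209 to 245 CPM in 482N1, 34.4 to 38.1 in E0771-BrM and 15.5 to 22.6 in B16F10-BrM. The 4 measured of 13 mammary markers (Gata3, Erbb2, Areg and Foxa1) summed to 132 to 149.96 CPM in 482N1, above the 50.5 to 66 CPM of the breast line, and to 3.85 to 5.27 CPM in B16F10-BrM, where Areg was at 0. The 3 measured of 14 stromal and leukocyte markers, Col1a2, Cd68 and Cd14, summed to at most 34.2 CPM in any library.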

How the data were processed

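Per the labels' protocols, total RNA was poly(A)-selected and made into stranded libraries with a dUTP kit. The authors deposited raw read counts per gene symbol. The submitters' processing notes name FastQC, TopHat2 2.0.10, Bowtie 1.0.0, SAMtools 0.1.19, Cufflinks 2.2.1 and GRCm39. The counting tool, strand setting, annotation and choice of listed genes are not given in the sources used here.

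In R 4.3.3 with edgeR 4.0.16, filterByExpr kept 11037 of 11046 genes. A quasi-likelihood model with a term for each line, TMM scaling and robust dispersions used all 9 libraries. Lines were compared in pairs by 2-sided F tests, with Benjamini-Hochberg adjustment over all genes of a comparison and a threshold of 0.05. The SE of a log2 fold change is its size over the square root of F. For a large fold with few counts in 1 line, this SE can be smaller than counting error alone. For a line at 0 the fold uses 3 counts in the group as its denominator and is given as a lower bound. It leaves out the counting error of the higher line, which matters where that line has few counts. With 1 to 3 counts the ratio has an exact 95% interval. The bound and the interval treat reads as independent molecules and hold no error other than counting error.

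The members and lists were chosen with earlier results of these data known. The text names genes from up to 3 called per list, direction and comparison, those with the largest log2 fold changes, and the 5 nearest profiles per member without predicted genes. Neighbours (3 measured per side), marker genes and the genes at 0 in B16F10-BrM were added beside that rule. A listed gene that the rule names is counted in its list but is not reported here. Lengths are of 1 principal transcript per gene in GENCODE M21, found for 10853 genes. RefSeq gave promoters for 3 of the 5 members. The procedure was also run on simulated data with far fewer and smaller changes than between these lines. That run is therefore no check on the member folds given here. Alternatives included DESeq2 1.42.0 and limma 3.58.1.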

Additional observations from a re-analysis of the deposited data

How the results depend on the processing

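Tested against a minimum 2-fold change (glmTreat), the genes called fell to 3477 for B16F10-BrM minus 482N1, 3342 for E0771-BrM minus 482N1 and 2905 for E0771-BrM minus B16F10-BrM, and the listed genes called to 44, 44 and 36, by the stricter test. With a replicate block on the letters the genes called were 8595, 8623 and 8162 and the listed genes 71, 66 and 60. Deviations of same-letter libraries correlated at -0.00992 to 0.0898, and those of libraries with different letters at -0.0752 to 0.037. The highest values were thus of same-letter pairs, but all were weak. They were not taken as a pairing, although library B had the fewest counts of Dct in both 482N1 and E0771-BrM. Under the other alternatives both kinds of count stayed within 1.5 times the value reported. Of 146 named results over 20 alternatives, 104 kept direction and call under all that were run, 63 of 2916 gene and alternative pairs lost the call and 0 reversed. For members at or near 0 in a line, leaving out 1 library in turn moved the log2 fold change, since the bound or ratio rests on few counts. Krt18 and Wfdc2 had no count in any B16F10-BrM library. Leaving out 1 of those libraries moved their bounds only because the floor stayed at 3 counts over fewer reads. Such a shift follows from the rule and does not show dependence on a library. For B16F10-BrM minus 482N1 it ran from -15.96 to -14.83 for Krt8, from -15.2 to -14.49 for Krt18, from -6.39 to -4.01 for Pkp3 and from -12.54 to -11.79 for Wfdc2. For E0771-BrM minus B16F10-BrM it ran from 10.6 to 11.74 for Krt8, from 0.69 to 2.3 for Krt18, from 7.95 to 10.14 for Pkp3 and from 10.01 to 10.74 for Wfdc2. For E0771-BrM minus 482N1 Krt18 ran from -14.46 (without library C of E0771-BrM, a ratio of summed counts) to -12.81 (without library B, fitted). The values nearest 0 for Pkp3 came without library C of B16F10-BrM, which held its single count. There the floor of 3 counts took the place of that count, so these values are bounds and not ratios. With library B alone of 482N1 and of E0771-BrM, an alternative chosen after seeing the data, Krt18 for B16F10-BrM minus 482N1 was -15.06. The DESeq2 Wald test and the block were given no value where a member had 3 counts or fewer in 1 of the lines compared, and limma-voom and glmTreat were not run for members. Depth limits Krt18 in E0771-BrM and Pkp3 in B16F10-BrM, with 9 counts and 1 count in all.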
